A study of Rattus norvegicus with 8 samples.

Results

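The genes described here are 10 targets of the transcription factor Nrf2 and antioxidant enzymes, chosen by name: Hmox1, Nqo1, Gclc, Gclm, Slc7a11, Srxn1, Txnrd1, Prdx1, Gpx1 and Sod2. Of these, 9 were measured, with 31 probes, among 10881 genes with a symbol and 17928 features in all (a feature is the mean of the probes of 1 symbol, or 1 probe without a symbol). Slc7a11, the cystine transporter subunit, was not analysed here. Sprague Dawley rats were taken at 24 h, 4 with a transient occlusion of the middle cerebral artery (tMCAO), a stroke model in which the artery is blocked and then reopened, and 4 controls with a sham operation. The cortex came from the operated side of a 4 mm brain section, so the tissue is a mixture of all its cell types. Each animal's RNA was labelled with Cy5 and hybridised with a Cy3-labelled pool of sham cortex RNA, on 1 dual-colour Agilent array per animal with no dye swap. A log2 ratio of 0 therefore stands for the level of the pool.

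Nrf2, encoded by Nfe2l2, is held in the cytoplasm and led to degradation by Keap1. Oxidants and electrophiles modify Keap1, and Nrf2 then enters the nucleus, pairs with small Maf proteins and binds antioxidant response elements, where Bach1 can compete for the same sites. Its classical targets break down heme, reduce quinones, make glutathione and keep thioredoxin and peroxiredoxins reduced. Gpx1 and Sod2 are antioxidant enzymes that other factors, NF-kappaB among them for Sod2, are also known to regulate.

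Promoter windows from RefSeq (rat build GRCr8, 250 bases before to 50 after the annotated start) were read to show which members carry the core letters of an antioxidant response element close to their start. The searched letters were TGACNNNGC and TGAGNNNGC on both strands, and TGAGTCA, the AP-1 motif, which can overlap either of them. Of the 9 members with an entry, which include Slc7a11 and not Hmox1, 6 held a core: Gclm, Srxn1, Txnrd1, Gpx1, Sod2 and Prdx1. Over all 33469 windows of the table, 27.1% held one, and 4.63% held the AP-1 motif. The cores lay at 3 places in the Srxn1 window and at 1 place in each of the others, and Txnrd1 held it in 1 of its 2 windows. Only Srxn1 and Prdx1 held the AP-1 motif among the members, each at 2 places, 1 of which overlapped a core. The windows below show both subunits of glutamate-cysteine ligase, the windows with both motifs, and that of Nqo1, which held no match. Capitals mark matches, and the letters describe the sequence only.
Gclm, chr2:213031885-213032184, plus strand: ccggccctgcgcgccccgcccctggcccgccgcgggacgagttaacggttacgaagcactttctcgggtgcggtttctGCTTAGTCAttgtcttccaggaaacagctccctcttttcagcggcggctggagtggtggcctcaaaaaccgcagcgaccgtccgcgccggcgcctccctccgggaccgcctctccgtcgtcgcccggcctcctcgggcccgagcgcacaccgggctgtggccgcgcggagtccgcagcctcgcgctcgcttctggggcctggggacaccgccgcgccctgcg
Gclc, chr8:87510226-87510525, plus strand: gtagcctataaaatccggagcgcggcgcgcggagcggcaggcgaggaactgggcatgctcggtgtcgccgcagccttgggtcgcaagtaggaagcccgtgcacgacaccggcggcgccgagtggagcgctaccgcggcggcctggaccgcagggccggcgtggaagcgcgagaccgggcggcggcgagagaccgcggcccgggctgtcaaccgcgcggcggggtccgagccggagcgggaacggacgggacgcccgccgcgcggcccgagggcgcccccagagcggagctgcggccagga
Srxn1, chr3:161064562-161064861, plus strand: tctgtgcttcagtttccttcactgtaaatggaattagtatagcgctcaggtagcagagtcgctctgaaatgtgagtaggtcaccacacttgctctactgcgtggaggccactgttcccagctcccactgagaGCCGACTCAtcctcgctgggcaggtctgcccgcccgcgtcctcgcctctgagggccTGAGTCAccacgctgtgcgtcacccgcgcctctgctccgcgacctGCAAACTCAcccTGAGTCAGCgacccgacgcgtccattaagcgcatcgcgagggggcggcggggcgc
Prdx1, chr5:135383656-135383955, plus strand: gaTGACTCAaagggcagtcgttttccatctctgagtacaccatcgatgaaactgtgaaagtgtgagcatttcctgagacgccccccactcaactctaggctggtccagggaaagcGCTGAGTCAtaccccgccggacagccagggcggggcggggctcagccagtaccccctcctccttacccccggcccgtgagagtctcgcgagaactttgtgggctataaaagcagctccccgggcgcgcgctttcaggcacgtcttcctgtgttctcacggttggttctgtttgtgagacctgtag
Nqo1, chr19:52220218-52220517, minus strand: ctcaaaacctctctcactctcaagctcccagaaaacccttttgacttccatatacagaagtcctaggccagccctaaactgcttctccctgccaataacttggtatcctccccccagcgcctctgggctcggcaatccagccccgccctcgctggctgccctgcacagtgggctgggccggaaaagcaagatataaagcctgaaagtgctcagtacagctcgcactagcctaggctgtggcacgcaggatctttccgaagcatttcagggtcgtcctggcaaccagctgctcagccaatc

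Of the 9 measured members, 7 were called higher in tMCAO cortex and none lower (limma, adjusted p under 0.05 after Benjamini-Hochberg over all 17928 features), while with quantile-normalized ratios 4 were called higher and Hmox1 turned its sign. The unadjusted p was under 0.05 for the same 7. They were Prdx1, Gpx1, Txnrd1, Nqo1, Gclm, Sod2 and Hmox1, at 1.40 to 2.09 times the sham level as measured. Among all features, 15.0% were called higher and 16.0% lower. The 4 tMCAO arrays lay above the 4 sham arrays for the same 7 members, as they did for 13.8% of all features. Srxn1 and Gclc overlapped between the groups. The median log2 difference of the members was 0.69, against -0.05 over all features. By the size of the difference, Prdx1 stood above 96.4% of all features, Gpx1 above 95.4%, Hmox1 above 86.6% and Gclc above 25.7%. Probe by probe, 23 of the 31 probes were called higher and none lower, where 14.5% of all 23376 probes were called higher.

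**Figure D1:**
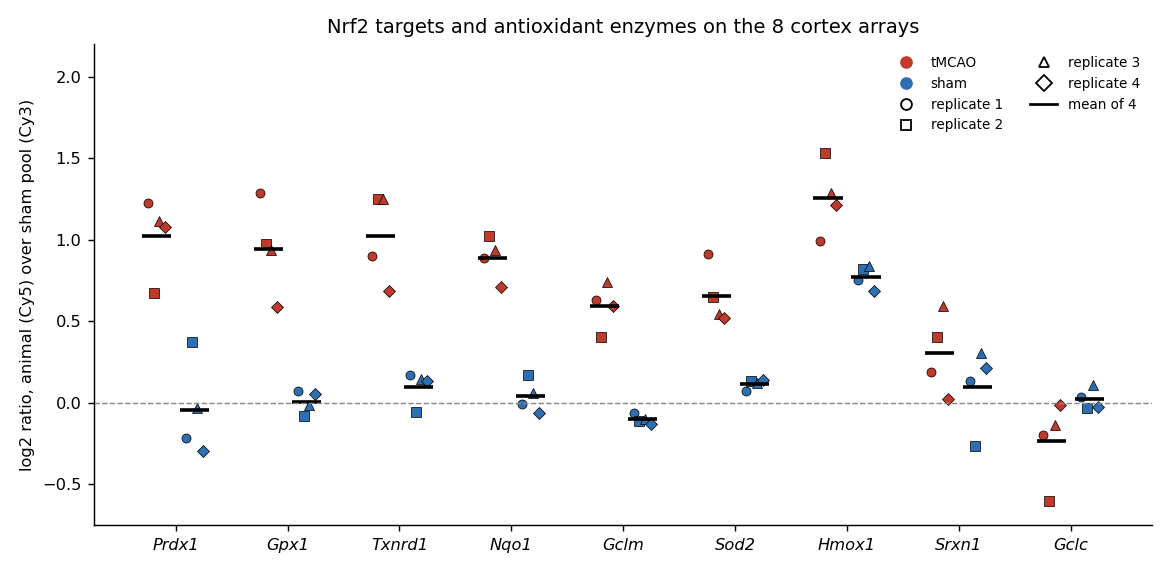
Log2 ratio of each animal's RNA (Cy5) over the sham pool (Cy3) for the 9 measured members, with 1 point per array and bars at the mean of 4. The tMCAO arrays lie above the sham arrays for 7 members, the groups overlap for Srxn1 and Gclc, and the sham arrays of Hmox1 lie between 0.68 and 0.84, above the pool.

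Hmox1 encodes heme oxygenase-1, the inducible enzyme that opens the heme ring and releases iron, biliverdin and carbon monoxide. Its log2 ratio to the pool was 0.99, 1.53, 1.29 and 1.22 on tMCAO arrays 1 to 4, against 0.75, 0.82, 0.84 and 0.68 on sham arrays 1 to 4. All tMCAO arrays lay above all sham arrays, and all 8 lay above the pool. The mean was 1.26 ± 0.22 in tMCAO and 0.77 ± 0.07 in sham cortex (SD, n = 4 each), a log2 difference of 0.48 ± 0.12 (SE) with a 95% interval of 0.22 to 0.75 (1.40-fold, adjusted p = 0.0165, limma). With quantile-normalized ratios the sign turned, to -0.46 at an adjusted p of 0.107. The 3 brighter probes, which share 1 target entry, differed by 0.54 to 0.55 and were called. The dim probe of another entry gave 0.29 (adjusted p = 0.0772, limma). With the Cy5 signal alone Hmox1 was called too, at 0.60 (adjusted p = 0.0148, limma). Averaged over the probes, the Cy5 signal was 2.60, 4.16, 3.25 and 3.07 in tMCAO, against 2.06, 2.42, 2.41 and 1.95 in sham cortex, without overlap. On the brightest probe it was 4.34, 7.51, 5.53 and 5.62 in tMCAO, against 4.07, 5.17, 5.08 and 3.52 in sham cortex, and these groups overlapped, while those of the other 3 probes did not.

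Hmox1 was also the only member that was called between the sham animals and the sham pool. The sham mean lay 0.77 ± 0.08 (SE) above the pool on the log2 scale (1.71-fold, adjusted p = 0.0308, limma), where 0.0335% of all features were called higher and 0.0167% lower. The 4 probes gave sham means of 0.66 to 0.95, and 3 of them were called on their own. In the authors' deposited table, the p-value for a difference between the channels was under 0.01 in 16 of 16 Hmox1 values on tMCAO arrays and in 16 of 16 on sham arrays. The other 8 members had sham means of -0.10 to 0.12, and of all 124 sham values of the 31 probes 17 had such a p-value, the 16 of Hmox1 and 1 of Srxn1. Animal RNA was always in Cy5 and the pool always in Cy3, and the animals behind the pool are not given in the labels, so dye and RNA source cannot be told apart in this comparison. The call was lost when tMCAO array 3 or any 1 sham array was left out, each by the adjusted p and not by the sign.

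In comparison with the pool, tMCAO cortex was called higher for the same 7 members, where 22.6% of all features were called higher and 26.3% lower. Hmox1 stood at 2.39 times the pool and Prdx1 at 2.03 times. This comparison shares the tMCAO arrays with that against sham. Against sham animals Hmox1 gave the smallest of the 7 called differences.

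Nqo1 encodes an enzyme that reduces quinones by a pair of electrons at once and so avoids semiquinone radicals. Its log2 ratio was 0.89, 1.02, 0.94 and 0.71 on tMCAO arrays 1 to 4, against -0.01, 0.17, 0.06 and -0.07 on sham arrays 1 to 4. The groups lay far apart, and the sham animals lay within 0.17 of the pool. The log2 difference was 0.85 ± 0.09 (SE), with a 95% interval of 0.63 to 1.07 (1.80-fold, adjusted p = 0.0021, limma). Nqo1 had 10 probes of 4 target entries. Called higher were 9 of them, by 0.41 to 1.28. The other lay at a Cy5 signal of 0.02 to 0.03 on every array, the step of the deposited rounding, and gave -0.25 (adjusted p = 0.544, limma).

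Glutamate-cysteine ligase makes the first and limiting step of glutathione synthesis. Gclm is its modifier subunit and Gclc its catalytic subunit. The log2 ratio of Gclm was 0.63, 0.40, 0.74 and 0.59 on tMCAO arrays 1 to 4, against -0.06, -0.11, -0.10 and -0.13 on sham arrays 1 to 4. The sham animals lay close together and below every tMCAO animal. Gclm was higher in tMCAO by 0.69 ± 0.09 on the log2 scale (SE; 95% interval 0.49 to 0.89, 1.62-fold, adjusted p = 0.0029, limma). Its brighter probe differed by 0.87. The dim probe, with Cy5 signals of 0.04 to 0.08, gave 0.51. Moving every intensity by 1 rounding error would put the fold of the averaged probes anywhere between 1.30 and 2.02.

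Gclc gave -0.20, -0.60, -0.14 and -0.01 on tMCAO arrays 1 to 4, against 0.04, -0.03, 0.11 and -0.03 on sham arrays 1 to 4. Array 4 of tMCAO lay among the sham arrays and array 2 was the lowest. The difference, -0.26 ± 0.13 on the log2 scale (SE; 95% interval -0.55 to 0.03), was not called (adjusted p = 0.151, limma), and its 4 probes gave -0.29 to -0.22. The interval leaves room for no change or for a fall, and it ends below the interval of Gclm. Within an array, Gclm minus Gclc was 0.83, 1.00, 0.87 and 0.61 in tMCAO, against -0.10, -0.08, -0.21 and -0.10 in sham cortex. This pair was compared after its values were seen and is a description with no test.

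Txnrd1, the cytosolic thioredoxin reductase, passes electrons from NADPH to thioredoxin. Its log2 ratio was 0.90, 1.25, 1.25 and 0.69 on tMCAO arrays 1 to 4, against 0.17, -0.06, 0.15 and 0.13 on sham arrays 1 to 4. Every tMCAO array lay above every sham array, by 0.92 ± 0.14 in the mean (SE; log2, 95% interval 0.61 to 1.24, 1.90-fold, adjusted p = 0.0043, limma). The single probe had a Cy5 signal of 19.72, 25.34, 23.77 and 16.24 in tMCAO, against 10.84, 9.59, 10.5 and 11.13 in sham cortex. Bright signals piled up at 19.2, 24.5 and 23.9 in the Cy5 channel of tMCAO arrays 1, 2 and 3. The probe was past that ceiling on arrays 1 and 2 and just under it on array 3. The size of its rise is therefore read as a lower limit on arrays 1 and 2.

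**Figure D2:**
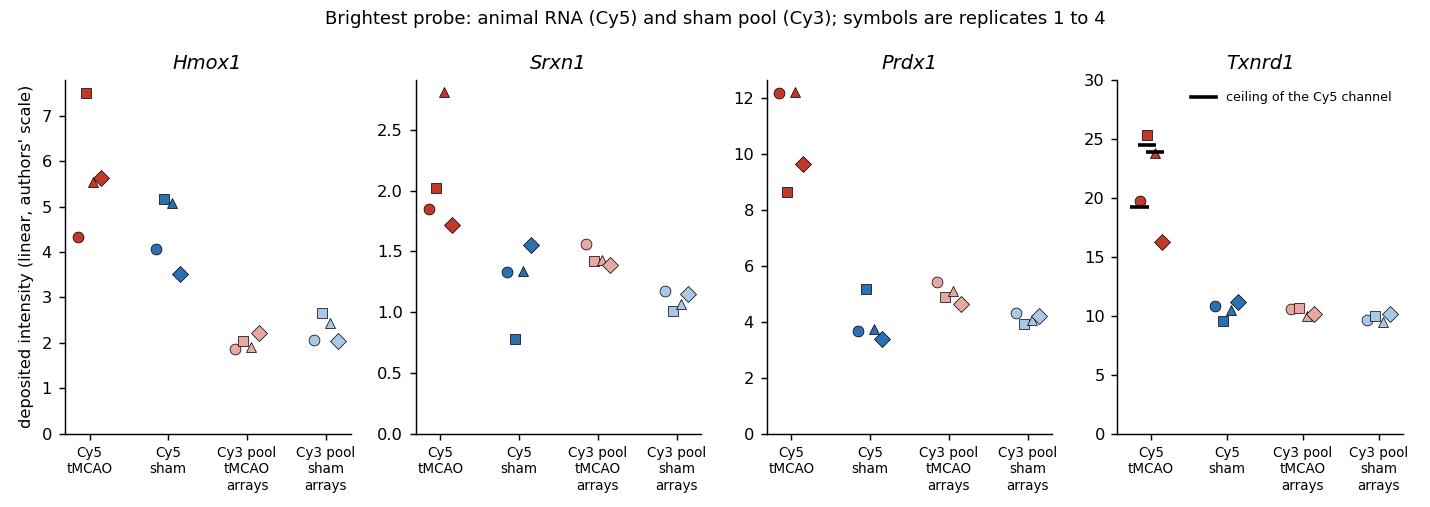
Deposited linear intensity of the brightest probe of 4 members, with the animals' RNA (Cy5) and the sham pool (Cy3) drawn separately for the tMCAO and the sham arrays. Cy5 overlaps between the groups for Hmox1, Srxn1 is higher in both channels of the tMCAO arrays, and Txnrd1 reaches the ceiling of its Cy5 channel (black bars) on tMCAO arrays 1 and 2.

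Prdx1 is a peroxiredoxin that reduces hydrogen peroxide and is recycled by thioredoxin. Its log2 ratio was 1.23, 0.67, 1.12 and 1.08 on tMCAO arrays 1 to 4, against -0.21, 0.37, -0.03 and -0.30 on sham arrays 1 to 4. Sham array 2 was high and tMCAO array 2 low, yet the groups did not overlap. The difference of 1.07 ± 0.17 (SE; log2, 95% interval 0.67 to 1.46, 2.09-fold, adjusted p = 0.0051, limma) was the highest measured among the members, of which Txnrd1 has only a lower limit. Its 3 probes, all of 1 target entry, gave 0.95 to 1.15. Neighbours in the order of the members had overlapping intervals, so the order is not settled.

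Srxn1, sulfiredoxin, restores peroxiredoxins whose cysteine has been over-oxidised. Its log2 ratio was 0.19, 0.40, 0.59 and 0.02 on tMCAO arrays 1 to 4, against 0.13, -0.27, 0.31 and 0.22 on sham arrays 1 to 4. The groups overlapped, with tMCAO array 4 lower than 3 of the sham arrays. The log2 difference of 0.20 ± 0.16 (SE; 95% interval -0.16 to 0.57) was not called (adjusted p = 0.357, limma). Its 2 probes, of different target entries, gave 0.37 for the brighter and 0.04 for the dim one, and neither was called. The Cy5 signal of the brighter probe was 1.85, 2.02, 2.81 and 1.72 in tMCAO, against 1.33, 0.78, 1.34 and 1.55 in sham cortex, without overlap. The pool signal on the same probe was 1.56, 1.42, 1.43 and 1.39 on the tMCAO arrays, against 1.17, 1.01, 1.07 and 1.15 on the sham arrays. With the Cy5 signal alone, the difference of Srxn1 became 0.53 (adjusted p = 0.0497, limma).

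The pool is the same kind of RNA on every array, so its signal gives a view of the arrays themselves. It was higher on tMCAO than on sham arrays for 3 members at an adjusted p under 0.05 (limma), where 14.3% of all features were. These were Srxn1 by 0.29, Gpx1 by 0.24 and Prdx1 by 0.23 on the log2 scale. The part of this shift in the results on these 3 members was not tested.

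Gpx1, the main cytosolic glutathione peroxidase, reduces hydrogen peroxide at the cost of glutathione. Its log2 ratio was 1.28, 0.97, 0.93 and 0.58 on tMCAO arrays 1 to 4, against 0.07, -0.08, -0.02 and 0.05 on sham arrays 1 to 4. The tMCAO animals were spread over a wider range than the sham animals and lay wholly above them. Gpx1 was higher by 0.94 ± 0.14 (SE; log2, 95% interval 0.62 to 1.25, 1.92-fold, adjusted p = 0.0040, limma), and its 3 probes gave 0.78 to 1.04.

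Sod2, the mitochondrial superoxide dismutase, gave 0.91, 0.65, 0.54 and 0.52 on tMCAO arrays 1 to 4, against 0.07, 0.13, 0.12 and 0.14 on sham arrays 1 to 4. The sham animals lay within a narrow band below all tMCAO animals. The log2 difference was 0.54 ± 0.10 (SE; 95% interval 0.31 to 0.77, 1.45-fold, adjusted p = 0.0071, limma), and both probes were called, at 0.67 and 0.41. With quantile-normalized ratios Sod2 and Prdx1 kept their sign and were no longer called, at 0.26 (adjusted p = 0.0804) and 0.85 (adjusted p = 0.0864).

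**Figure D3:**
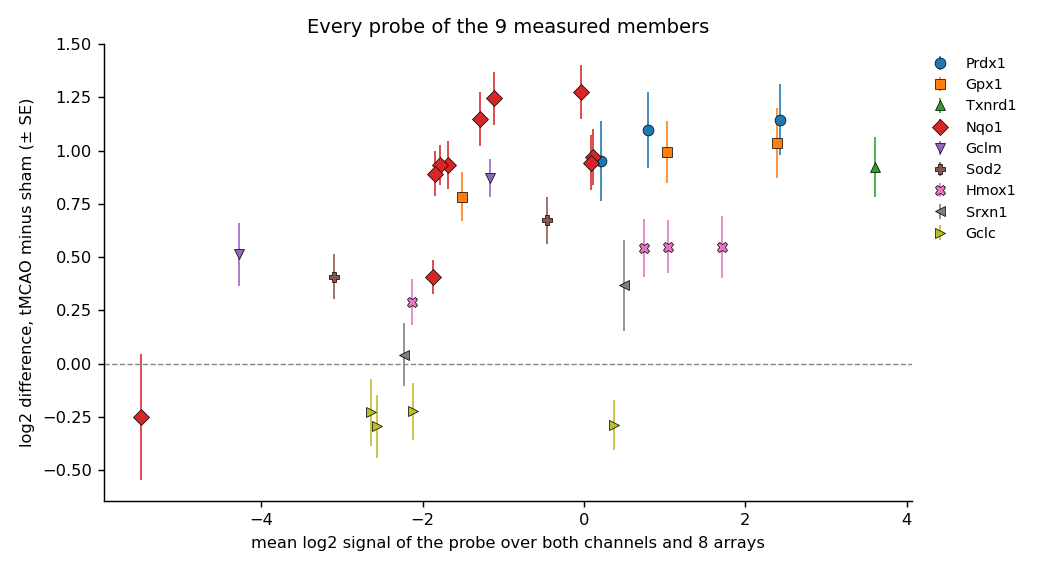
Log2 difference, tMCAO minus sham, of each of the 31 probes against its mean log2 signal over both channels, with SE bars from the limma fit of every probe. The probes of Gpx1, Prdx1 and Gclc lie close to those of the same gene, and the 10 probes of Nqo1 run from -0.25 for the dimmest to 1.28.

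The tMCAO animals were not alike. The SD of the log2 ratios over all features was 0.728, 0.679, 0.607 and 0.360 on tMCAO arrays 1 to 4, while the sham arrays had SDs of 0.221 to 0.250. The median of the 9 members was 0.90, 0.67, 0.93 and 0.59 on tMCAO arrays 1 to 4, against -0.03 to 0.11 on the sham arrays. Array 4 had the lowest tMCAO ratio for 5 of the 9 members (Nqo1, Srxn1, Txnrd1, Gpx1 and Sod2), and array 2 for 3 (Gclc, Gclm and Prdx1). Leaving out any 1 of the 8 arrays left 7 members called.

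The regulators of Nrf2 formed a list of 11 genes, all measured, with 0 called higher, 1 called lower and a median of -0.17 (limma). At an unadjusted p under 0.05 there were 2 higher and 1 lower. Nfe2l2 gave 1.49, 1.05, 0.79 and 0.34 on tMCAO arrays 1 to 4, against 0.22, 0.29, 0.39 and 0.36 on sham arrays 1 to 4. Arrays 1 to 3 of tMCAO lay above all sham arrays, and array 4 lay among them. The difference of 0.60 ± 0.21 (SE, log2) was not called (adjusted p = 0.0619, limma), and with quantile-normalized ratios it was 0.013. Keap1 differed by -0.18 (adjusted p = 0.204) and Bach1, near the floor of the signal, by 0.21 (adjusted p = 0.358, limma), which turned to -0.21 with Cy5 alone. Park7, the redox-sensitive protein DJ-1, was the called gene and fell by 0.29 ± 0.08 (SE, log2; adjusted p = 0.0227, limma), but with Cy5 alone it turned to 0.05.

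Beyond the members, 8 lists of the pathway held 105 genes, 99 of them measured. Of these, 15 were called higher, 17 lower and 67 were not called, close to the 15.0% and 16.0% of all features, and their median was -0.06. Without tMCAO array 4, 28 were called higher and 24 lower, where 3907 and 4317 of all 17928 features were. With quantile-normalized ratios 11 were higher and 5 lower, where 1524 and 1379 features were. With Cy5 alone 19 were higher and 7 lower, where 2997 and 2711 features were. Of the 32 genes called by the ratio, 14 were also called with quantile-normalized ratios, 16 with Cy5 alone and 10 with both. These 10 were Gpx7, Gpx8, Txn1, Prdx5, Gstp1, Mgst1, Osgin1 and Taldo1, all higher, and Sesn1 and Gstm7, both lower. Each of the others lost its call under 1 or both of these settings. Of the 32, 3 (Park7, Gpx4 and Akr7a2) turned their sign with Cy5 alone and none with quantile-normalized or median-centred ratios.

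Among 18 genes of glutathione synthesis and recycling, 3 rose and 2 fell. Gpx8 (0.82) and Gpx7 (0.80), peroxidases of the endoplasmic reticulum, and Slc3a2 (0.53), the heavy chain that pairs with Slc7a11 and other transporters, were higher in tMCAO on the log2 scale. Slc3a2, at 0.25 and not called with Cy5 alone, was at 0.62, 0.58, 0.60 and 0.45 on tMCAO arrays 1 to 4, against 0.10, -0.02, 0.10 and -0.03 on sham arrays 1 to 4. Ggt7, a relative of the gamma-glutamyltransferases, fell by 1.32 ± 0.30 (SE; adjusted p = 0.0130, limma), and Gpx4, which reduces lipid peroxides, fell by 0.33 ± 0.08 (SE; adjusted p = 0.0183, limma), which turned to 0.09 with Cy5 alone. By the ratio, Gpx1 and Gpx4 thus moved in opposite directions.

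Of 15 measured thioredoxins, peroxiredoxins, sestrins and methionine sulfoxide reductases, 3 rose and 3 fell. Txn1, the thioredoxin that Txnrd1 reduces, gave 1.24, 1.28, 0.93 and 0.59 on tMCAO arrays 1 to 4, against 0.02, 0.12, -0.06 and 0.03 on sham arrays 1 to 4. Its difference of 0.98 ± 0.15 (SE, log2; adjusted p = 0.0045, limma) stands beside a difference of Txnrd1 that is a lower limit. Prdx5 (0.60) and Prdx4 (0.49) also rose. Sesn1 (-1.02), a p53-regulated sestrin, and the methionine sulfoxide reductases Msrb1 (-0.75) and Msra (-0.59) fell. With Cy5 alone Msrb1 was at -0.16 and Msra at -0.29, and Msra was at -0.21 with quantile-normalized ratios.

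None of the 4 other superoxide dismutase and catalase genes was called (limma), and none had an unadjusted p under 0.05. Sod1, the cytosolic superoxide dismutase, differed by -0.04 ± 0.11 (SE, log2; adjusted p = 0.795) and Ccs, its copper chaperone, by -0.19 ± 0.28 (adjusted p = 0.614). The glutathione S-transferases split, with 3 of 18 higher and 6 lower. Gstp1 (0.79), Mgst2 (0.74) and Mgst1 (0.68) rose, Mgst2 with overlapping groups. Gstm7 (-1.25), Gstm1 (-0.40), Gstm3 (-0.35) and Mgst3 (-0.31) fell. The mu-class transferases are closely similar to one another, and a probe may read more than 1 of them.

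Osgin1, an oxidative stress response gene, had the highest difference of all 8 lists. It stood at 1.92, 2.19, 1.81 and 1.16 on tMCAO arrays 1 to 4, against 0.00, 0.26, 0.00 and 0.26 on sham arrays 1 to 4, a difference of 1.64 ± 0.20 (SE, log2; 3.12-fold, adjusted p = 0.0030, limma). The sham ratios of Osgin1 repeated the values 0.00 and 0.26, a pattern that coarse rounding of dim signals can give, so its fold is approximate. In the same list of quinone and carbonyl detoxification, 2 of 19 genes rose and 3 fell. Akr1b1, aldose reductase, rose (0.47), and Aldh1a1 (-0.56), Akr7a2 (-0.33) and Ephx1 (-0.30) fell, of which Akr7a2 turned to 0.11 with Cy5 alone. Of the 7 measured genes that supply NADPH, 1 rose, Taldo1 (0.53), the transaldolase of the pentose phosphate pathway.

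Of 7 measured genes of heme breakdown and iron handling, 3 rose and 2 fell. Ftl1 (0.60), the ferritin light chain, Blvrb (0.49), a biliverdin reductase, and Slc40a1 (0.87), the iron exporter ferroportin, rose, Slc40a1 with overlapping groups. Hmox2, the constitutive heme oxygenase, gave -0.56, -0.60, -0.50 and -0.47 on tMCAO arrays 1 to 4, against -0.10, -0.10, 0.05 and -0.20 on sham arrays 1 to 4. It fell by 0.45 ± 0.08 (SE, log2; adjusted p = 0.0067, limma), opposite in sign to Hmox1 except with quantile-normalized ratios, where Hmox1 turned. Hmox2 was at -0.22 with quantile-normalized ratios and at -0.13 with Cy5 alone, not called in either. Fech (-0.30), which inserts iron into protoporphyrin to form heme, fell too.

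**Figure D4:**
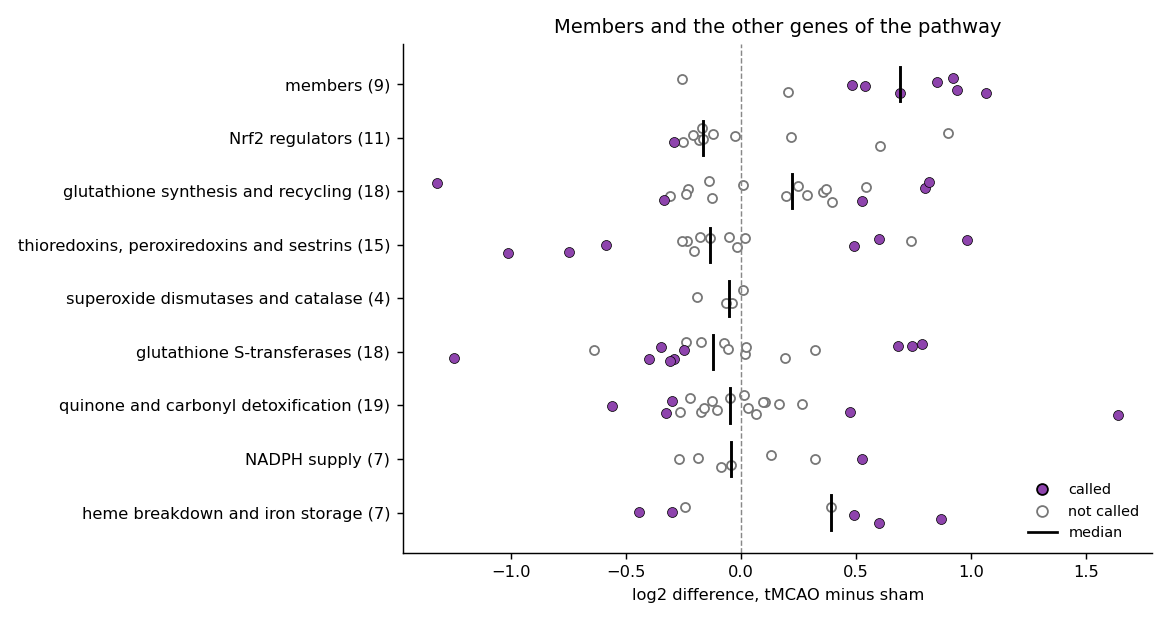
Log2 difference, tMCAO minus sham, of the 9 measured members and of the measured genes of 8 pathway lists, with filled points for genes called at an adjusted p under 0.05 and a bar at each median. The members have a median of 0.69, and the list medians lie between -0.17 and 0.39.

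Markers of some cell types were higher in tMCAO cortex, and those of others were lower or not called. In these bulk samples, fewer cells of a type and less RNA per cell cannot be told apart. Of 10 genes of microglia and macrophages, 9 were higher in tMCAO, among them C1qa and Csf1r, the second by 0.73 (log2), and their summed Cy5 signal was 25.6 to 57.0 in tMCAO, against 16.2 to 17.5 in sham cortex. All 7 measured genes of reactive astrocytes were higher, Gfap and Vim among them, with sums of 48.3 to 96.2 in tMCAO and 18.6 to 29.6 in sham cortex. Of 6 endothelial genes 4 were higher, Kdr among them, with sums of 11.1 to 32.5 in tMCAO and 7.03 to 8.10 in sham cortex. Gfap, Vim, C1qa, Kdr and the neuronal Eno2 reached the lowest ceiling of the signal, 19.2, on at least 1 array, so their differences are not given and the sums that hold them are not exact. With Cy5 alone Gfap was not called. Array 4 had the lowest tMCAO sum of all 3 lists, and also of the neutrophil, red blood cell, oligodendrocyte and astrocyte lists. For striatal genes its sum, 7.14, was close to the lowest tMCAO sum, 7.09. For neuronal genes it was 34.1, near the highest tMCAO sum of 35.3, and for cortical projection neuron genes it was the highest, 1.63. The log2 ratios over all features were also the least spread on this tMCAO array (SD 0.360).

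All 7 measured neuronal genes were lower in tMCAO, Eno2 and Nefl among them, the second with a log2 difference of -0.78. Their sums were 24.1 to 35.3 in tMCAO and 45.1 to 49.1 in sham cortex. Nefl was at -0.61 with quantile-normalized ratios and at -0.60 with Cy5 alone. Neither Nefl nor Eno2 was called in these 2 settings. None of the 4 genes of neutrophils, the 4 of red blood cells and the 7 of oligodendrocytes was called (limma), and at an unadjusted p under 0.05 only 1 oligodendrocyte gene was higher and 1 lower. The log2 differences of the neutrophil genes ran from -0.13 to 1.80, with a median of 0.93. Neutrophil genes summed to 2.29 to 6.01 on tMCAO arrays 1 to 3 and 0.426 on array 4, against 0.347 to 1.76 in sham cortex. Red blood cell genes gave 4.96 to 11.9 on tMCAO arrays 1 to 3, 3.91 on array 4 and 3.94 to 5.02 in sham cortex. Oligodendrocyte genes gave 39.1 to 45.8 on tMCAO arrays 1 to 3, 24.9 on array 4 and 32.4 to 39.9 in sham cortex. Astrocyte genes were mixed, 1 of 7 higher and 3 lower, with sums of 24.0 to 28.4 in tMCAO and 15.9 to 24.7 in sham cortex. The higher gene was Gfap, which the reactive astrocyte list also holds. Of 3 genes of cortical projection neurons, 1 was lower (Slc17a7, -0.54), with sums of 0.98 to 1.63 in tMCAO and 1.51 to 1.80 in sham cortex. Genes of striatal neurons were also detected, with 6 of 8 lower (Drd1, noted after its value was seen, turned to 0.16 with quantile-normalized ratios) and sums of 7.09 to 10.6 in tMCAO and 9.74 to 11.9 in sham cortex. Of the 37 markers called by the ratio, 24 were also called with quantile-normalized ratios, 28 with Cy5 alone and 22 with both. No marker was at 0 on every array. The part of cell makeup in the rise of the members was not tested.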

How the data were processed

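For 8 arrays and 23609 probes, the authors deposited, per the file headers, normalized intensities of Cy5 and Cy3 with a p-value that compares the channels. Images were read with Agilent Feature Extraction 8.5.1.1, per the submitters' processing notes. Per the labels, 100 ng of RNA was amplified in 2 rounds. The scaling and the error model behind the deposited intensities are not given in the sources used here. Values were rounded to 2 decimals, and 27.9% of Cy5 values lay below 0.1, where ratios are coarse. A deposited log10 value table matched log10(Cy5/Cy3) within 0.005 and served as an alternative. The number of arrays limits the precision.

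Ratios log2(Cy5/Cy3) were taken for the 23376 probes with complete values (233 were left out), symbols were updated with RefSeq GRCr8, and probes of a symbol were averaged. Group means were fitted with limma 3.58.1 (lmFit and eBayes, R 4.3.3, 2-sided) over 17928 features, with Benjamini-Hochberg adjustment over all of them. The pipeline was tested on simulated data. The 10 members and all gene lists were chosen with earlier results of these data known. All members are named. From each pathway list, up to 4 called genes without overlap are named by size, with up to 2 called against the majority, or up to 2 by signal where none is called. From each marker list, up to 2 are named by signal. Mgst2 and Slc40a1, whose groups overlap, were named after their values were seen.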

Additional observations from a re-analysis of the deposited data

Results flagged for a closer look

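The log2 ratio of Txnrd1 on sham array 2, -0.060, lay apart from the other 3 sham arrays, at 0.13 to 0.17. The gap was 0.830 of the range of the group, just past Dixon's critical value for 4 arrays. It was 1 of 18 member and group combinations tested, and chance alone marks about 1 in 20.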

How the results depend on the processing

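Nqo1, Gclm and Gpx1 were called higher under all 21 alternatives tried, at log2 differences of 0.58 to 0.98, 0.61 to 0.87 and 0.63 to 1.21, and Txnrd1 under the 20 that measured it, at 0.56 to 1.05. In place of 7 members, 4 were called with quantile-normalized ratios, where Hmox1 turned to -0.46 and Sod2 (0.26) and Prdx1 (0.85) were not called. That setting gives the 8 arrays 1 distribution, although the ratios of the tMCAO arrays were spread more widely. There, 2903 features were called in place of 5552, and 16 pathway genes (11 higher, 5 lower) in place of 32. Array weights gave 8699 features and 59 pathway genes (30 higher, 29 lower). At an adjusted p under 0.01 there were 1950 features, 6 members without Hmox1 (0.48), 13 pathway genes and 0 members between sham and pool (limma). Srxn1 was called with Cy5 alone, at 0.53. Leaving out 1 array at a time gave 7 members, and 7 to 9 members against the pool. The 9, without tMCAO array 4, were 8 higher and 1 lower. Array weights, and leaving out the dimmest 20% of features, also gave 8 higher and 1 lower against the pool. An intensity trend with robust variances gave 7 higher and 1 lower. In the main fit only Gclc lay below the pool, at -0.24 and not called (adjusted p = 0.056, limma). Leaving out 1 array at a time also gave 0 to 1 members between sham and pool. It gave 3512 (without sham array 3) to 8224 features and 22 to 52 (without tMCAO array 4) pathway genes. Leaving out probes at the ceiling removes Txnrd1. Cy5 alone gives no comparison with the pool.

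Replicate numbers did not pair the animals, with correlations of same-numbered deviations of -0.05 to 0.04. With the replicate number as a block, 7 members, 0 between sham and pool, 3982 features and 22 pathway genes were called.

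Rounding limits dim probes: ranges within 1 rounding error, chosen after seeing the data, put the fold of Gclm at 1.30 to 2.02, of Nqo1 at 1.56 to 2.07 and of Gclc at 0.766 to 0.912. Dye was never swapped, and hybridisation batches are not given in the labels.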

Other observations

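Of all 17928 features, 6 were higher and 3 lower in the sham animals than in the sham pool (limma, adjusted p under 0.05). All of these that carry a symbol are named here, after their values were seen. Bag3, a co-chaperone induced by protein stress, lay 0.82 above the pool on the log2 scale, with sham arrays at 0.66 to 0.98. Hbegf, a growth factor induced after injury, lay 0.56 above it, at 0.49 to 0.62. Drd2, the dopamine receptor of striatal neurons, lay at -0.86, with sham arrays at -0.99 to -0.76. Pop5 lay at -0.73, with sham arrays at -0.86 to -0.63, and Cnga2 at -0.54, with sham arrays at -0.58 to -0.42. Hmox1 lay at 0.77, with sham arrays at 0.68 to 0.84.

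On sham array 2, Prdx1 was the highest of the sham ratios (0.37, against -0.30 to -0.03 on the other 3) and Srxn1 the lowest (-0.27, against 0.13 to 0.31). Nqo1 was also the highest there (0.17), and Gclc, Txnrd1 and Gpx1 were the lowest (-0.03, -0.06 and -0.08). The array was picked out after its values were seen. These are values of 1 animal.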
